A study of Homo sapiens with 9 samples.

Results

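The transcripts described here are the 10 core genes of the heat shock system: HSF1, HSPA1A, HSPA1B, HSPA8, DNAJB1, HSPH1, HSP90AA1, HSP90AB1, HSPB1 and HSPD1. They were chosen by name, and all 10 were found among the 38021 genes of the count table. The cells were 786-O, a human clear cell renal cell carcinoma (ccRCC) line without functional VHL, in which HIF2α stays stable at normal oxygen. Every group was infected with a PLKO.1 lentiviral vector for a short hairpin RNA, selected with puromycin and then maintained under it. The hairpin was a control (shControl), was directed at ARNT (shARNT), the classical partner of HIF2α, or was directed at BMAL1 (shBMAL1), the circadian clock factor that pairs with CLOCK. Each group held 3 libraries labelled as biological replicates, 9 in all. The study asked what ARNT and BMAL1 each contribute to gene expression driven by HIF2α. The sources used here give no step that synchronised the clocks of these cultures.

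Heat shock proteins are chaperones that bind unfolded or partly folded proteins and keep them from aggregating. HSF1 is the transcription factor that drives most of them under stress, and it binds the heat shock element, a repeat of short inverted units in the promoters of its targets. HSP70 proteins bind clients with the help of J-domain proteins and are reset by nucleotide exchange factors, HSP90 matures kinases and receptors with a large set of co-chaperones, and HSP60 folds proteins inside mitochondria. HSP90 is well known in kidney cancer cells for holding HIF-α proteins in a stable form.

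The sequences below show the match to the heat shock element, or to the E box that BMAL1 with CLOCK binds, for the genes that fell most and for genes that did not pass the test, so that the letters can be read beside the values. They come from the RefSeq promoter table (GRCh38.p14) and were placed on GRCh37, the build that the study's methods name, by an exact and unique match. The exception is HSPH1, where the last base before the start used in the table lay 485 bases upstream of the MANE Select start (that of the reference transcript of the annotation). Its window was read from GRCh37 at that start, at position 31736041 of chromosome 13. Capitals mark units of the heat shock element in their 2-unit or 3-unit arrangement, or the E box CACGTG. Where annotated exons lay in the window, only a short stretch is shown.
HSPH1 heat shock element, chr13:31736065-31736118, minus strand: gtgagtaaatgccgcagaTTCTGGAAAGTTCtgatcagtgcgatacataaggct
HSPH1 E box, chr13:31736128-31736157, minus strand: aagcggaagtggCACGTGgaggggccggtg
HSP90AA1, chr14:102553382-102553531, minus strand: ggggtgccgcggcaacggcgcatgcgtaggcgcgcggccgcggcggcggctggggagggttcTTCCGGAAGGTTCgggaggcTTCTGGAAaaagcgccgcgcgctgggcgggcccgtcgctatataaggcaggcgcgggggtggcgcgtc
HSP90AB1, chr6:44215560-44215589, plus strand: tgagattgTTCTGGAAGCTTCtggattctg
HSPA8, chr11:122932878-122932907, minus strand: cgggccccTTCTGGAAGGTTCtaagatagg
HSPA1A, chr6:31783170-31783319, plus strand: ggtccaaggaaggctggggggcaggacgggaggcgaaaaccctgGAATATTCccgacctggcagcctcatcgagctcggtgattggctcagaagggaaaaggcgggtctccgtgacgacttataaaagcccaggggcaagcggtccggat
HSPD1 heat shock elements, chr2:198364785-198364814, minus strand: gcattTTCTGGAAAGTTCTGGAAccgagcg
HSPD1 E box, chr2:198365069-198365098, minus strand: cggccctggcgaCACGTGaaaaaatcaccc

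Each motif was searched on both strands from 250 bases before to 50 bases after a start, except for the hypoxia cores in HSPH1 given below. A match is a description of the letters only. The 3-unit heat shock element GAANNTTCNNGAA stood in 0.49% of all 35116 promoters of the table. Of the 9 members with a table promoter (all but HSF1), it stood in a window of 4, namely HSPA8, HSP90AA1, HSP90AB1 and HSPD1, and the HSPH1 window at its MANE Select start held it as well. In HSP90AB1 the last base before the start of the matching window lay 841 bases downstream of the MANE Select start, within the transcribed region, and the window at that start held no match. HSPA1A, HSPA1B, DNAJB1 and HSPB1 held the shorter head-to-head form GAANNTTC, which is also part of the 3-unit form and stood in 6.769% of all promoters. The tail-to-tail form TTCNNGAA stood in 7.737% of all promoters and was found in every member window with the 3-unit form, which contains it, with a further match outside that form in HSP90AA1 and HSPH1. The E box stood in 7.256% of all promoters and, among members, in a table window of HSPD1. The HSPH1 window at its MANE Select start, added after the data were seen, also held it. The HSPH1 table window held no match to any motif. For HSPD1 the last base before the start of the window with the E box lay 435 bases upstream of the MANE Select start. The window at the latter start held no E box. The HSPD1 E box also lay in the promoter of HSPE1, its neighbour on the opposite strand, and overlapped an annotated HSPE1 exon. The hypoxia response cores ACGTG and GCGTG stood in 21.409% and 36.542% of all promoters. They were not searched in the HSPH1 window at its MANE Select start. ACGTG is contained in CACGTG, and the cores were too common to set the members apart. CCAAT, at 34.614% of all promoters, was found in table windows of 5 members and in the HSPH1 window at its MANE Select start, and TATAAA, at 11.53%, in HSPA1A and HSPA1B. Matches to the heat shock element and the E box thus occurred in HSPH1, which fell with shBMAL1, though only in the added window. Both also occurred in table windows of HSPD1, which did not pass the test there.

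**Figure D1:**
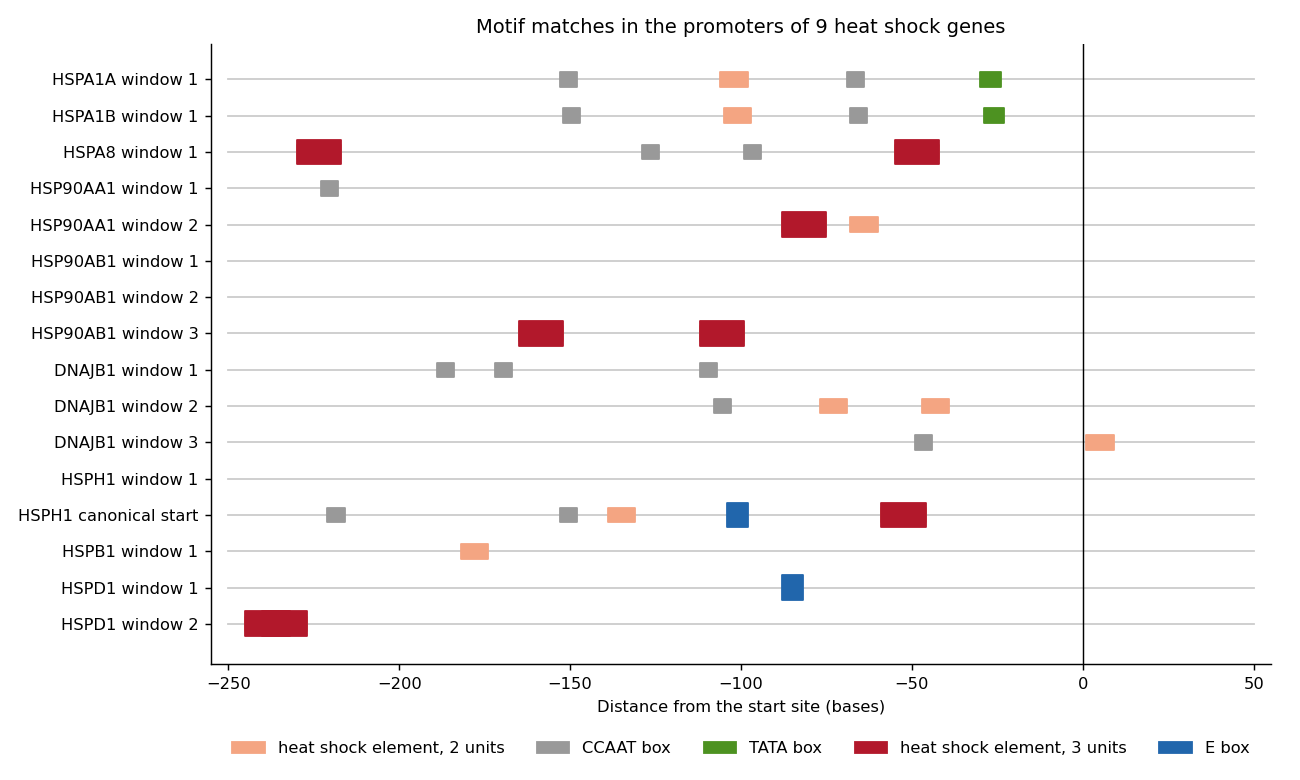
Motif matches by distance from the start site (bases, 0 at the start) for the 15 table windows of 9 heat shock genes and the HSPH1 window at its MANE Select (canonical) start. The 3-unit heat shock element nearest to a start begins at -55 in HSPA8, -59 in HSPH1 and -88 in HSP90AA1, and the hypoxia cores are not drawn.

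The libraries held 33793067 to 35444757 reads assigned to genes, of which 163502 to 192396 fell in the 10 members. Values are normalised read counts, which are counts divided by DESeq2 size factors over the 9 libraries. The share of reads from mitochondrial transcripts rose from 5.46–7.14% in shControl to 7.59–8.74% in shARNT and 8.71–9.66% in shBMAL1, and its part in the results below was not tested. Kidney and epithelial markers were present in every library (PAX8 at 6884 to 10480 normalised counts), the leukocyte marker CD3E and the endothelial marker CDH5 were at 0, and PTPRC did not exceed 2.95. All 7 markers of the line were detected, with a summed level of 149400 to 151500 in shControl, 139500 to 142400 in shARNT and 123100 to 136700 in shBMAL1. The 4 leukocyte markers summed to 7.04 to 14.7 over all libraries, and the 3 endothelial markers to 2.01 to 8.95. ARNT stood at 2187, 2551 and 2318 in shControl and at 1239, 1238 and 1199 in shARNT, which gave -0.94 on the log2 scale (SE 0.07, DESeq2 adjusted p = 8.62e-35). The BMAL1 gene, listed as ARNTL, stood at 752, 797 and 735 in shControl and at 346, 292 and 340 in shBMAL1, a log2 fold change of -1.23 (SE 0.11, DESeq2 adjusted p = 2.5e-25). Each target was thus lower in all 3 libraries of its own knockdown. ARNT was also lower in shBMAL1 (-0.23, DESeq2 adjusted p = 0.0187) and ARNTL in shARNT (-0.26, adjusted p = 0.0293). The first call was lost without shControl replicate 2 (adjusted p = 0.162) or shBMAL1 replicate 2 (0.109), the second without shControl replicate 2 (0.15) or shARNT replicate 3 (0.214).

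The members spanned a wide range of levels. Per kilobase of transcript, the scale on which different genes can be compared, HSPB1 had the highest level in shControl at 29957 ± 2922 normalised counts (SD, n = 3). HSPB1 (HSP27) is a small heat shock protein that holds unfolding proteins and binds the actin cytoskeleton. HSPA8, the constitutive HSP70, followed at 26212 ± 625, and HSP90AB1, the constitutive HSP90, at 21660 ± 428. HSPD1 (HSP60) stood at 7500 ± 270.

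HSP90AA1, the stress-responsive HSP90, stood at 6114 ± 222 per kilobase in shControl, and HSF1 at 2515 ± 123. HSPH1 (HSP110), an exchange factor and disaggregase partner of HSP70, stood at 1107 ± 145, and DNAJB1 (HSP40), a J-domain partner of HSP70, at 1066 ± 66.3. The stress-inducible HSP70 genes were lowest, HSPA1B at 478 ± 61.4 and HSPA1A at 355 ± 30.6. HSPH1 and DNAJB1 overlapped in shControl and were therefore not ordered there, while HSPH1 (1065 to 1154) lay wholly above DNAJB1 (952 to 1017) in shARNT and DNAJB1 (1025 to 1119) wholly above HSPH1 (747 to 871) in shBMAL1. The other places in the order were the same in each group, with overlap between HSPB1 and HSPA8 and between HSPA1B and HSPA1A in shBMAL1. The lengths are those of the MANE Select transcripts.

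**Figure D2:**
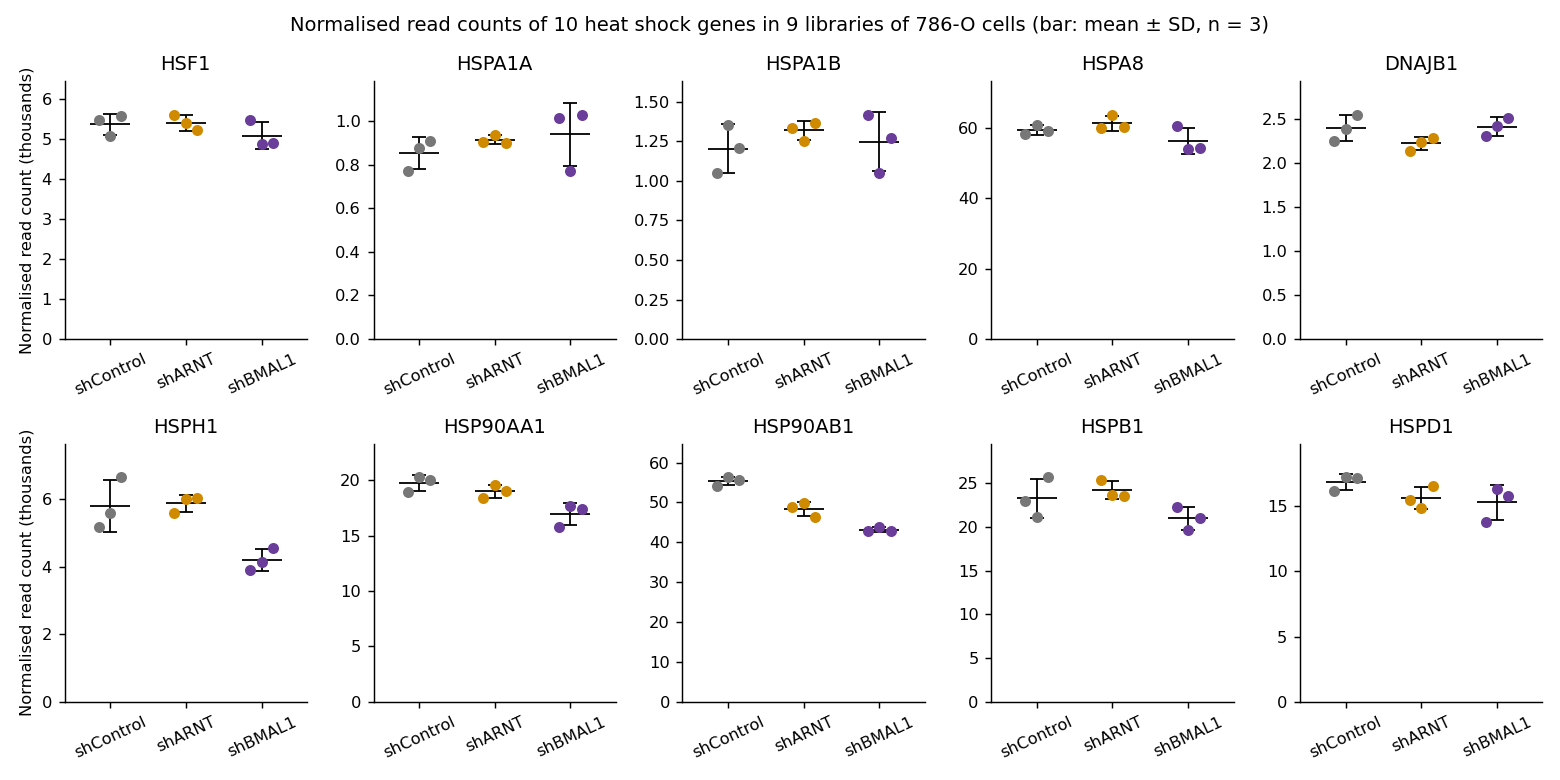
Normalised read counts (each axis from 0) of the 10 genes by group, with a point per library and the mean ± SD of 3 libraries. HSPH1 and the HSP90 pair lie lower in all 3 shBMAL1 libraries than in any shControl library, while HSF1, HSPA1A, HSPA1B, HSPA8, DNAJB1, HSPB1 and HSPD1 overlap.

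HSP90AB1 was the member that changed in all 3 comparisons. It encodes HSP90β and lies on chromosome 6 (GRCh37, 44213903 to 44221625, plus strand, 12 exons). Its normalised counts were 54137, 56269 and 55617 in shControl, 48804, 49764 and 46321 in shARNT, and 42761, 43903 and 42865 in shBMAL1. The 3 groups did not overlap, with shControl highest and shBMAL1 lowest. In bulk RNA, a lower level in every cell and a smaller share of cells with the transcript cannot be told apart. With shARNT it fell by 12.5% (log2 fold change -0.19, SE 0.05, DESeq2 adjusted p = 0.000203). With shBMAL1 it fell by 22.1% (-0.36, SE 0.05, adjusted p = 4.53e-10 in DESeq2). Tested directly between the knockdowns, its change from shARNT to shBMAL1 was -10.7% (-0.16, SE 0.06, DESeq2 adjusted p = 0.0162), a call that was lost when shARNT replicate 2 was left out (-0.14, adjusted p = 0.113).

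HSP90AA1, which encodes HSP90α on chromosome 14 (102547079 to 102606036, minus strand), fell with shBMAL1. Its normalised counts were 18918, 20258 and 20032 in shControl, 18404, 19590 and 19029 in shARNT, and 15791, 17675 and 17430 in shBMAL1. The shBMAL1 libraries lay below all others, and shControl and shARNT overlapped. Its change from shControl to shBMAL1 was -14.2% (-0.22, SE 0.07, DESeq2 adjusted p = 0.00369), whereas the change with shARNT was -0.05 (95% interval -0.15 to 0.04, DESeq2 adjusted p = 0.482). The direct difference was -0.17 (SE 0.06, DESeq2 adjusted p = 0.0378). It lost its call without shARNT replicate 2 (adjusted p = 0.168), shARNT replicate 3 (0.105) or shBMAL1 replicate 1 (0.123). The summed count of both HSP90 genes, given as a description, was 75077 ± 1805 in shControl, 67304 ± 2004 in shARNT (89.6% of control) and 60142 ± 1519 in shBMAL1 (80.1%). Their MANE Select transcripts were 73.2% identical and shared 0 windows of 100 bases, so reads of that length can be told apart between them. The annotation names 5 processed pseudogenes for HSP90AA1 and 6 for HSP90AB1, which can take or lend reads.

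HSPH1 had the largest change of the 10 genes in shBMAL1. It lies on chromosome 13 (31709110 to 31736525, minus strand, 18 exons). Its normalised counts were 5175, 5591 and 6654 in shControl, 5586, 6004 and 6054 in shARNT, and 3916, 4137 and 4567 in shBMAL1. All shBMAL1 libraries lay below all libraries of the other groups, and shControl replicate 3 was the highest of its group. The change of HSPH1 in shBMAL1 was -27.6% against shControl (-0.47, SE 0.09, DESeq2 adjusted p = 3.12e-06) and -28.5% against shARNT (-0.48, SE 0.07, DESeq2 adjusted p = 1.26e-09). Leaving out any library kept the fall against shControl between -0.55 and -0.36, with an adjusted p of at most 0.000367. With shARNT the log2 fold change was 0.02 (95% interval -0.13 to 0.17, DESeq2 adjusted p = 0.881), and it ran from -0.06 without shControl replicate 1 to 0.13 without shControl replicate 3.

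HSPB1 (chromosome 7, 75931990 to 75933612, plus strand) differed between the knockdowns but passed the test in neither against shControl. Its normalised counts were 22956, 21184 and 25690 in shControl, 25441, 23720 and 23567 in shARNT, and 22258, 19704 and 21029 in shBMAL1. The shControl libraries overlapped both knockdowns, and the knockdowns did not overlap each other. Its change from shARNT to shBMAL1 was -13.5% (-0.21, SE 0.07, DESeq2 adjusted p = 0.0064), and leaving out a library kept this between -0.25 and -0.16. Against shControl the change was 0.06 with shARNT (DESeq2 adjusted p = 0.53) and -0.15 with shBMAL1 (0.129). The latter passed the threshold without shControl replicate 2 (-0.22, adjusted p = 0.0347) or shBMAL1 replicate 1 (-0.19, 0.0358), and in a fit of all 9 libraries (-0.15, adjusted p = 0.0982). The shARNT change passed with a correction of each library for transcript GC content (0.13, adjusted p = 0.0201) and without shControl replicate 3 (0.14, adjusted p = 0.0745).

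HSF1 itself, the regulator of the system, lies on chromosome 8 (145515273 to 145538383, plus strand) and passed the test in no comparison. Its normalised counts were 5473, 5070 and 5561 in shControl, 5601, 5394 and 5208 in shARNT, and 5471, 4873 and 4901 in shBMAL1. The groups overlapped, with replicates 2 and 3 of shBMAL1 lowest. The log2 fold change was 0.01 with shARNT (95% interval -0.10 to 0.12, DESeq2 adjusted p = 0.912) and -0.08 with shBMAL1 (-0.22 to 0.06, adjusted p = 0.444), and -0.09 directly (-0.23 to 0.05, adjusted p = 0.365). The direct difference passed without shBMAL1 replicate 1 (-0.14, adjusted p = 0.0813). A transcript level says nothing of the HSF1 protein or its activity, which heat and other stress set after translation. Exons of HSF1 overlap the span of the DGAT1 gene on the opposite strand (12202 reads over 9 libraries), and those of DNAJB1 that of TECR (48637 reads). The libraries were stranded, but whether the counts used strand is not given in the sources used here.

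The stress-inducible HSP70 genes HSPA1A and HSPA1B, which rise steeply when HSF1 is active, passed the test in no comparison. They lie side by side on chromosome 6 (31783320 to 31785723 and 31795515 to 31798031), and their transcripts were 95.2% identical, with 72.4% of 100-base windows shared, so the split of reads between them is uncertain. HSPA1A stood at 769, 879 and 908 in shControl, 906, 938 and 901 in shARNT, and 1015, 772 and 1029 in shBMAL1. HSPA1B stood at 1046, 1355 and 1210.1 in shControl, 1334, 1254 and 1367 in shARNT, and 1418, 1051 and 1273 in shBMAL1. Both genes overlapped between all groups, and shBMAL1 replicate 2 was the lowest of its group for both. Added into 1 row, they gave a log2 fold change of 0.12 with shARNT (SE 0.08, DESeq2 adjusted p = 0.239), 0.09 with shBMAL1 (SE 0.11, adjusted p = 0.605) and -0.03 directly (SE 0.10, adjusted p = 0.856). Leaving out a library gave a call for HSPA1A with shBMAL1 (0.26, adjusted p = 0.066, without shBMAL1 replicate 2) and for HSPA1B with shARNT (0.23, adjusted p = 0.0677, without shControl replicate 2).

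HSPA8 (chromosome 11, 122928197 to 122933938, minus strand), the HSP70 of unstressed cells, stood at 58059, 60860 and 59113 in shControl, 59957, 63647 and 60043 in shARNT, and 60421, 53934 and 54106 in shBMAL1. Replicate 1 of shBMAL1 lay among the other groups and the other two lay below them. The change was 0.05 with shARNT (95% interval -0.04 to 0.14, DESeq2 adjusted p = 0.483), -0.08 with shBMAL1 (-0.21 to 0.04, adjusted p = 0.369) and -0.13 directly (adjusted p = 0.129). Without shBMAL1 replicate 1 HSPA8 passed the test against both shControl (-0.14, adjusted p = 0.0316) and shARNT (-0.18, 0.00596). The direct difference also passed with the GC correction (-0.15, adjusted p = 0.031) and in a fit of all 9 libraries (-0.12, adjusted p = 0.0878). The annotation names 17 pseudogenes for HSPA8, which can take or lend reads.

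DNAJB1 (chromosome 19, 14625581 to 14671203, minus strand), the J-domain partner that hands clients to HSP70, stood at 2247, 2377 and 2543 in shControl, 2135, 2235 and 2281 in shARNT, and 2299, 2418 and 2508 in shBMAL1. The shBMAL1 libraries lay wholly above shARNT, but the direct change of 0.12 did not pass (95% interval -0.02 to 0.26, DESeq2 adjusted p = 0.23). Against shControl the change was -0.10 with shARNT (adjusted p = 0.253 in DESeq2) and 0.01 with shBMAL1 (0.949). The latter ran from -0.04 to 0.05 when a library was left out.

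HSPD1 (chromosome 2, 198351308 to 198381461, minus strand), the mitochondrial HSP60, stood at 16138, 17206 and 17167 in shControl, 15489, 14873 and 16569 in shARNT, and 13771, 16313 and 15791 in shBMAL1. In each knockdown a single library reached into the shControl range. The changes of -0.10 with shARNT (95% interval -0.21 to 0.00, DESeq2 adjusted p = 0.14) and -0.14 with shBMAL1 (-0.28 to 0.00, adjusted p = 0.131) did not pass. With the GC correction both did, at -0.13 (adjusted p = 0.0424) and -0.15 (adjusted p = 0.0492). The first also passed without shARNT replicate 3 (-0.15, adjusted p = 0.044) and the second without shBMAL1 replicate 2 (-0.19, adjusted p = 0.0566). The annotation names 18 processed pseudogenes for HSPD1. HSPE1 (HSP10), the lid of the HSP60 chamber, shares the promoter region shown above and is transcribed away from HSPD1. It stood at 1890, 2294 and 1969 in shControl, 1852, 1847 and 2168 in shARNT, and 2576, 1981 and 1659 in shBMAL1, with overlap of all groups and no call (DESeq2 adjusted p = 0.631, 0.976 and 0.68 for shARNT, shBMAL1 and the direct comparison).

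**Figure D3:**
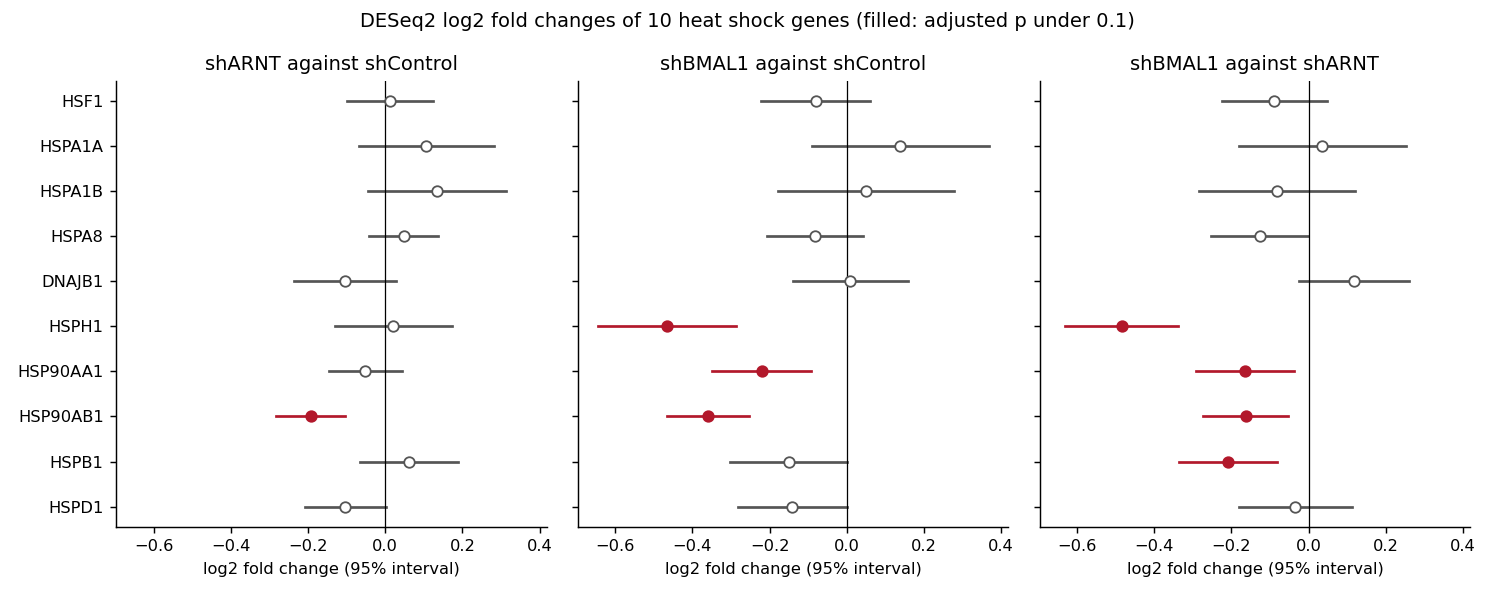
DESeq2 log2 fold changes of the 10 genes with 95% intervals in each comparison, filled where the adjusted p was under 0.1. The called changes are HSP90AB1 with shARNT, HSPH1 and both HSP90 genes with shBMAL1, and these 3 with HSPB1 in the direct comparison, all below 0.

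Counted over the 10 members, 1 was lower and 0 were higher with shARNT, where 35.4% of the 15171 genes tested were called (16.5% higher and 19% lower). With shBMAL1, 3 were lower and 0 higher, where 36.8% of the 19047 genes tested were called (17.4% higher and 19.4% lower). Directly, 4 were lower in shBMAL1 than in shARNT and 0 were higher, where 36.3% of 17728 genes were called (17.8% higher and 18.6% lower). The shares of 10%, 30% and 40% of the members thus stood below or near the share of all genes, so the number of calls does not set the members apart.

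The median log2 fold change of the members was 0.02 with shARNT, -0.11 with shBMAL1 and -0.11 directly, against 0.00, 0.02 and 0.01 over all genes tested. The comparisons share libraries, both knockdowns having been set against the same shControl libraries, so their values for a gene are not independent. The GC correction took the members called with shARNT from 1 to 3, as HSPB1 and HSPD1 joined HSP90AB1, and leaving out a library gave 1 to 2. Leaving out a library gave 3 to 5 calls with shBMAL1 and 2 to 5 directly. It was 5 with shBMAL1 without shBMAL1 replicate 1 or 2, and 2 directly without shARNT replicate 2. None of the 10 reached a 1.5-fold change in any comparison. The summed counts of the 10 were 190155 ± 4852 in shControl, 184138 ± 3068 in shARNT and 166467 ± 2326 in shBMAL1 (87.5% of control), to which HSPA8 and HSP90AB1 contribute most.

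Around the members, 101 other chaperone and heat-inducible genes were listed by role. With shARNT, 20 rose and 13 fell of 93 tested (35.5% called), or 25 and 9 with the GC correction, and 13 rose without shARNT replicate 3. With shBMAL1, 12 rose and 31 fell of 95 tested (45.3%), and directly 14 were higher and 38 lower in shBMAL1 of 95 tested (54.7%), with 9 higher without shARNT replicate 3. The medians were 0.03, -0.06 and -0.10. Over all genes tested 35.4%, 36.8% and 36.3% were called, so the share with shARNT was at the background. No difference of these genes, or of any list below, from all genes was tested. The lists were not matched by read count to all genes tested, and the part of read count in these shares was not tested.

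Of 17 cofactors of HSP90 and HSP70, 1 was higher and 8 were lower with shBMAL1 (median -0.22), where 17.4% of all genes tested were higher and 19.4% lower, and the difference from all genes was not tested. They included SUGT1 (-0.42, DESeq2 adjusted p = 0.00276), which couples HSP90 to client receptors, and STUB1 (-0.37, adjusted p = 8.93e-05), the ubiquitin ligase CHIP that tags chaperone clients for decay. FKBP4, an immunophilin of the HSP90 complex, fell from 4235, 4320 and 4115 normalised counts in shControl to 3323, 2924 and 3601 (-0.37, DESeq2 adjusted p = 4.35e-05). FKBP5, the related immunophilin that lowers steroid receptor activity, was the member of the list that rose (0.46, adjusted p = 0.000118), and it rose with shARNT too (0.26, adjusted p = 0.0416). The shARNT call was lost without shControl replicate 3 (adjusted p = 0.246), shARNT replicate 1 (0.176) or shARNT replicate 2 (0.125). CDC37, which loads kinases on HSP90, fell with shBMAL1 (-0.36, adjusted p = 0.000211) and was also lower there than with shARNT (-0.43, adjusted p = 9.74e-07). With shARNT, 2 of the 17 rose and 3 fell, and directly 2 were higher and 7 lower. Of all genes tested, 16.5% were higher and 19% lower with shARNT, and 17.8% and 18.6% directly. The 3 that fell with shARNT became 1 without shControl replicate 2 or shARNT replicate 2. The 2 that rose with shARNT became 1 without shARNT replicate 1 or 2. The 2 higher directly became 0 without shARNT replicate 2 or 3 and 1 without each of the other libraries, and the 1 higher with shBMAL1 became 2 without shControl replicate 1.

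The chaperonin CCT and prefoldin, which fold actin and tubulin, had 0 genes higher and 8 lower of 14 with shBMAL1 (median -0.21), and 0 higher and 10 lower directly (median -0.23). Of all genes tested, 17.4% were higher and 19.4% lower with shBMAL1, 17.8% and 18.6% directly, and 16.5% and 19% with shARNT. CCT5 stood at 25640, 26742 and 25008 in shControl, 23516, 24739 and 25810 in shARNT, and 17934, 17593 and 18320 in shBMAL1, which lay wholly below. Its fall was -0.53 (SE 0.06, DESeq2 adjusted p = 3.87e-18), and PFDN2 fell by a like size (-0.56, SE 0.12, adjusted p = 1.29e-05). With shARNT the list had 2 genes higher, CCT6A (0.16, adjusted p = 0.00977) and CCT3 (0.13, adjusted p = 0.02), and 0 lower. The call of CCT6A was lost without shControl replicate 1 (adjusted p = 0.101), where 1 gene of the list was lower, and that of CCT3 without shARNT replicate 3 (0.127).

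Among the other HSP70 and HSP110 genes, HSPA4L, a relative of HSPH1, moved opposite to it. It rose from 1288, 1331 and 1381 in shControl to 1901, 2133 and 2058 in shBMAL1 (0.60, DESeq2 adjusted p = 9.13e-13), with no overlap. HSPA4, the third of the HSP110 type, was higher with shARNT (0.27, adjusted p = 2.85e-07) and lower with shBMAL1 than with shARNT (-0.28, adjusted p = 4.82e-05). The list had 3 higher and 0 lower of 7 with shARNT, 2 and 0 of 8 with shBMAL1, and 3 and 1 of 8 directly, where 35.4%, 36.8% and 36.3% of all genes were called. The 3 higher became 1 with shARNT without shControl replicate 1 or shARNT replicate 2, and 1 directly without shARNT replicate 2 or shBMAL1 replicate 3. HSPA6, the strictly heat-induced HSP70, stood at 2.94 to 23.3 normalised counts over the libraries and overlapped between groups.

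The exchange factor BAG3, which joins HSP70 to small heat shock proteins and is itself induced by HSF1, fell with shBMAL1 and was the 1 gene of 6 in its list to do so. It stood at 2261, 2353 and 2552 in shControl, 2720.2, 2482 and 2538 in shARNT, and 1859, 1676 and 1770.5 in shBMAL1 (-0.44, DESeq2 adjusted p = 4.37e-07). BAG5 was the 1 gene of that list that rose with shARNT (0.32, adjusted p = 0.016), a call that was lost without shARNT replicate 2 (0.112), and 2 genes rose without shControl replicate 3. Of 15 J-domain genes tested, 6 rose and 2 fell with shARNT, 2 rose and 5 fell with shBMAL1, and 1 was higher and 6 lower directly. These were 53.3%, 46.7% and 46.7% called, against 35.4%, 36.8% and 36.3% of all genes. With shBMAL1 the 5 that fell became 3 without shControl replicate 1 or shBMAL1 replicate 1, and the 2 that rose became 1 without shControl replicate 2 or shBMAL1 replicate 2. With shARNT the 2 that fell became 1 without shControl replicate 1 or shARNT replicate 1 or 3. Directly, the 1 higher became 0 without shARNT replicate 1 or 3 or shBMAL1 replicate 2. DNAJB6, which suppresses aggregation of disease proteins, fell most of that list with shBMAL1 (-0.64, adjusted p = 7.58e-15) and also fell with shARNT (-0.20, adjusted p = 0.00573). DNAJC2 rose with shARNT (0.42, adjusted p = 4.89e-07) and fell with shBMAL1 (-0.21, adjusted p = 0.0571). The latter call was lost without shControl replicate 1 (adjusted p = 0.251), shBMAL1 replicate 1 (0.134) or shBMAL1 replicate 2 (0.151).

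**Figure D4:**
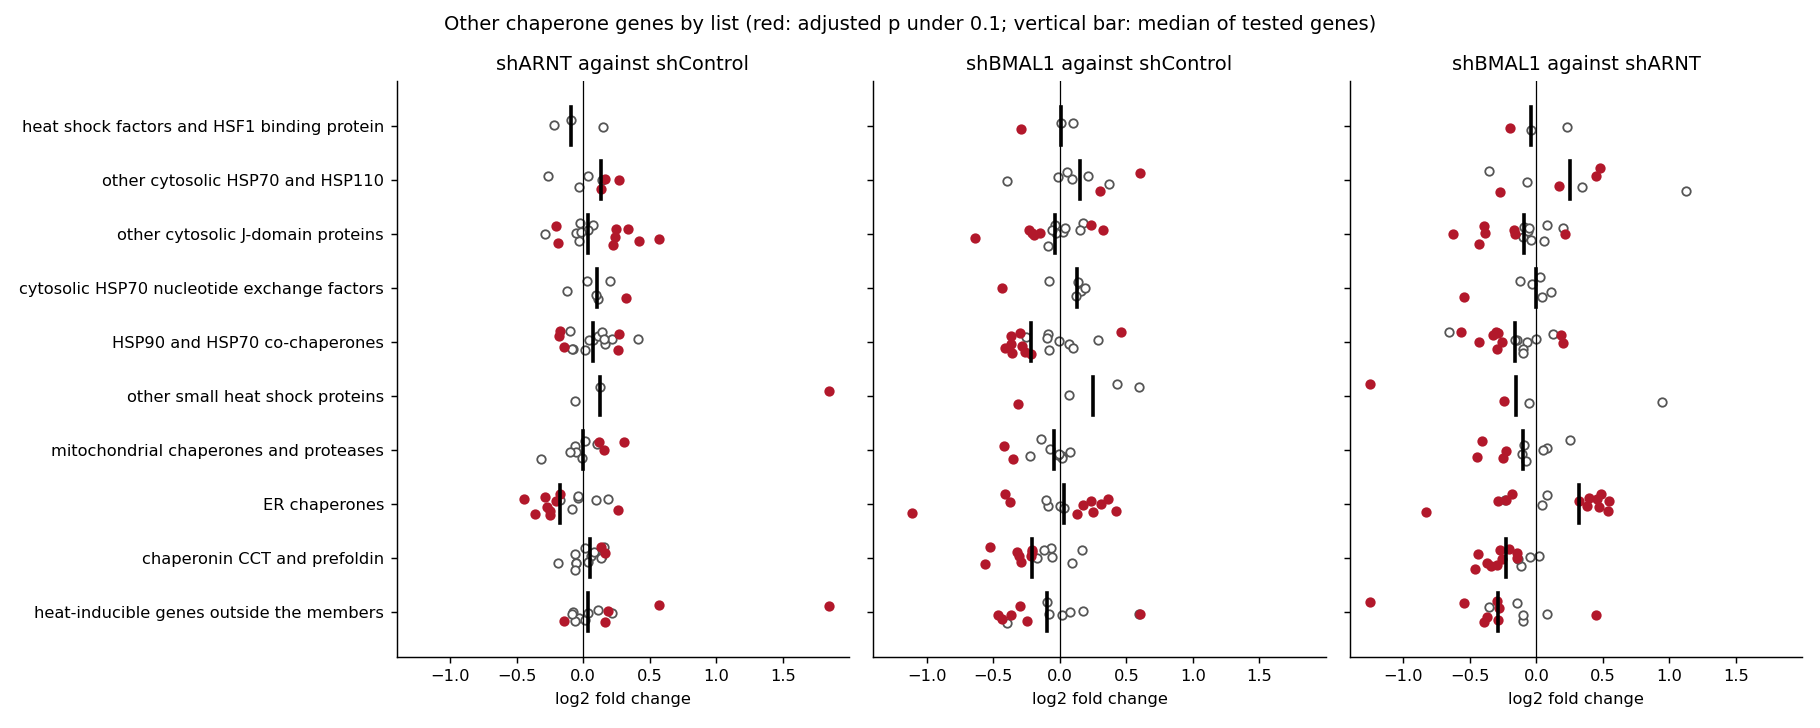
Log2 fold changes of the tested genes of 10 lists of other chaperone genes in each comparison, red where the adjusted p was under 0.1, with a vertical bar at the list median. The CCT and prefoldin list has its median to the left of 0 in both panels with shBMAL1 (-0.21 and -0.23), and 8 called ER genes lie to the right of 0 in the direct comparison.

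The list of 14 heat-inducible genes outside the members mostly repeats genes of the other lists. Of 13 tested, 4 rose and 1 fell with shARNT, 1 rose and 5 fell with shBMAL1, and 1 was higher and 7 lower directly. These were 38.5%, 46.2% and 61.5% called, against 35.4%, 36.8% and 36.3% of all genes. With shARNT the 4 that rose became 2 without shARNT replicate 1, and the 1 that fell became 0 without shControl replicate 2 or 3 or shARNT replicate 1 or 2. SERPINH1, the collagen chaperone HSP47, fell with shBMAL1 (-0.46, DESeq2 adjusted p = 4.02e-08). CRYAB, a small heat shock protein of low level here, stood at 36.2, 27 and 36.4 in shControl, 103, 151 and 102 in shARNT, and 48.7, 71.6 and 30.4 in shBMAL1. It was higher with shARNT in all 3 libraries (1.84, SE 0.28, DESeq2 adjusted p = 1.89e-09), the largest rise among the tested genes of these lists. HSPB8, the partner of BAG3, fell with shBMAL1 (-0.31, adjusted p = 0.00942). The list of small heat shock proteins had 1 higher of 3 tested with shARNT, 1 lower of 4 with shBMAL1 and 2 lower of 4 directly. The 2 became 1 without shARNT replicate 1 or 2 or shBMAL1 replicate 2 or 3, and the 1 higher with shARNT became 2 without shARNT replicate 1.

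Of the other heat shock factors, HSF2 stood at 477, 543 and 531 in the shControl libraries, 571, 563 and 577 with shARNT and 553, 552 and 558 with shBMAL1, and passed in no comparison (DESeq2 adjusted p = 0.308, 0.551 and 0.817). HSBP1, a small binding protein of HSF1, fell with shBMAL1 (-0.29, adjusted p = 0.00235). It was the 1 of 3 tested genes of its list called there and directly, where 36.8% and 36.3% of all genes were called. The direct call (-0.20, adjusted p = 0.0663) was lost without shARNT replicate 2 or 3 or shBMAL1 replicate 1 or 2 (adjusted p = 0.116 to 0.271).

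In mitochondria, beside HSPD1, the proteases LONP1 (-0.42, DESeq2 adjusted p = 1.23e-06) and CLPP (-0.35, adjusted p = 0.000208) were the 2 genes of 10 that fell with shBMAL1, and 0 rose. With shARNT 3 of 10 rose and 0 fell, and directly 0 were higher and 4 lower. The shares called of 30%, 20% and 40% with shARNT, with shBMAL1 and directly were below or near those of all genes (35.4%, 36.8% and 36.3%). The 3 that rose with shARNT became 0 without shControl replicate 3 or shARNT replicate 3, and 1 without shControl replicate 1 or shARNT replicate 2. HSPA9, the mitochondrial HSP70, was among the 3 (0.12, adjusted p = 0.0866), a call that was lost in most alternatives, and TRAP1, the mitochondrial HSP90, passed in none (DESeq2 adjusted p = 0.583, 0.943 and 0.735).

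Among the chaperones of the endoplasmic reticulum (ER), with shARNT 1 of 15 rose and 8 fell, with shBMAL1 7 rose and 3 fell, and directly 8 were higher and 4 lower in shBMAL1. Over all genes, the shares higher and lower were 16.5% and 19%, 17.4% and 19.4%, and 17.8% and 18.6% in that order. The 7 that rose with shBMAL1 became 4 without shControl replicate 1 or 3, and the 1 that rose with shARNT became 2 without shARNT replicate 1. HSP90B1 (GRP94), the HSP90 of the ER, stood at 31341, 31230 and 31222 in shControl, 26249, 26775 and 25821 in shARNT, and 36668, 37364 and 36287 in shBMAL1, so the groups did not overlap. It fell with shARNT (-0.25, DESeq2 adjusted p = 6.82e-08), rose with shBMAL1 (0.23, adjusted p = 9.69e-05) and differed directly by 0.48 (SE 0.05, adjusted p = 1.69e-17). It thus rose in the knockdown in which both cytosolic HSP90 genes fell. HSPA5 (BiP), the ER HSP70, fell with shARNT (-0.29, adjusted p = 6.27e-08) and had a change of 0.02 with shBMAL1 (DESeq2 adjusted p = 0.817). HYOU1, the HSP110 of the ER, had the largest fall among these lists with shBMAL1, from 11708, 11043 and 11271 to 5461, 5208 and 5118 (-1.11, SE 0.06, DESeq2 adjusted p = 1.78e-70), and it fell with shARNT too (-0.27, adjusted p = 1.9e-07). HSPA13, another HSP70 of this list, likewise fell with shARNT (-0.45, DESeq2 adjusted p = 6.24e-11) and with shBMAL1 (-0.37, adjusted p = 2e-06).

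The genes most like a member over the 9 libraries were ranked by the root mean square difference of gene-centred log2 normalised counts, among 11797 genes with a mean of at least 100. For HSPH1 they were ARPC1B (0.0582), DYRK3 (0.0677) and USB1 (0.0705), where the median gene differed by 0.28. For HSP90AB1 they were NHLRC2 (0.033), RBPJ (0.0382) and KIAA0907 (0.0397), against a median of 0.209. For HSPD1 they were KLHL7 (0.0265), ASPM (0.0284) and CNOT6 (0.0454), against a median of 0.19. HSPE1, the partner that shares the HSPD1 promoter region, ranked 7535 of the 11797 for HSPD1, at 0.221. HSPD1 varied around its own mean by a root mean square of 0.0968, and HSPE1 ran from 1659 to 2576 within shBMAL1. The rank therefore cannot tell spread between replicates from a differing pattern.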

How the data were processed

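Total RNA from 9 cultures of 786-O cells was sequenced as stranded mRNA libraries. The values are estimated counts deposited by the authors, as total reads per gene. The study's methods name GRCh37 with SeqMan NGen and ArrayStar, whereas the submitters' processing notes name hg38, STAR and DESeq2, and versions and the strand setting are not given in the sources used here. The value 0.009, in 46.3% of cells, stood for 0 and was set to 0, and fractional values (3.3% of cells, 0 of them in a member) were rounded. Adding 53 rows to rows of the same name left 38021 genes, of which 28 carried a date for a name. Each comparison used the 6 libraries of its groups in DESeq2 1.42.0 (R 4.3.3) with median-of-ratios size factors, the two-sided Wald test, independent filtering and Benjamini-Hochberg adjustment over all genes tested, and a gene was called at an adjusted p under 0.1, as the study did. The script was tested on simulated data. Intervals are 95%.

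The members and lists were chosen with earlier results of these data known. Named genes were all members, HSF2, HSPE1, HSPA5, HSPA9, HSP90B1, TRAP1, the targeted genes, up to 3 called genes per list, comparison and direction with the largest change at a mean of at least 50, and the 3 genes of most like pattern for HSPH1, HSPD1 and HSP90AB1. HSPA6 was added for its role after its values were seen. Gene models came from GENCODE 44 lifted to GRCh37. Alternatives were edgeR 4.0.16 (quasi-likelihood, TMM), TMM or library-total size factors, keeping genes with 10 or more counts in 3 or more libraries, no independent filtering, a threshold of 0.05, a 1.5-fold minimum, a fit of all 9 libraries, a replicate block, values cut down to whole numbers, HSPA1A and HSPA1B in 1 row, and leaving out each library. A GC correction (loess, span 0.3, 88.8% of genes with a mean of at least 50 had a GC value) was added after the data were seen. The HSPH1 window at its MANE Select start was also added then. Labels do not say whether libraries of a group came from separate infections, so p-values measure the spread between these libraries.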

Additional observations from a re-analysis of the deposited data

How the results depend on the processing

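The called members kept their direction in every alternative run. A 1.5-fold minimum left 0 members in each comparison, and of the other chaperone genes it left 1 higher and 0 lower with shARNT, 1 higher and 2 lower with shBMAL1 (3 in all), and 0 higher and 3 lower directly (3 in all). The GC correction took members called with shARNT from 1 to 3. A filter, another test, another scaling, a fit of all 9 libraries and HSPA1A with HSPA1B in 1 row kept every count of calls within 1.5 times. Replicate numbers did not pair the libraries (correlation of same-numbered deviations -0.154 to 0.105 over 12937 genes). Not every library correlated best with its own number. A replicate block gave 1, 3 and 4 members called and gave 28, 36 and 48 other chaperone genes in place of 33, 43 and 52.

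Leaving out a library gave 1 to 2, 3 to 5 and 2 to 5 members called with shARNT, with shBMAL1 and directly. For the other chaperone genes it gave 13 to 18 higher and 11 to 13 lower (26 to 29 in all) with shARNT, 9 to 11 higher and 27 to 31 lower (36 to 42) with shBMAL1, and 9 to 12 higher and 29 to 35 lower (38 to 46) directly. Among the members and HSF2, HSPE1, HSPA5, HSPA9, HSP90B1 and TRAP1, signs turned only for uncalled changes. With the GC correction HSPH1 with shARNT was -0.0171, HSPE1 with shBMAL1 was -0.0201 (and -0.00671 with the replicate block), and TRAP1 with shBMAL1 was 0.0402 (and 0.0237 with library-total size factors). Leaving out a library, log2 changes with shARNT ran from -0.0273 to 0.0385 for HSF1, -0.0562 to 0.130 for HSPH1, -0.00159 to 0.138 for HSPB1, -0.145 to 0.0228 for HSPE1 and -0.111 to 0.0135 for TRAP1. With shBMAL1 they ran from -0.0530 to 0.161 for HSPA1B, -0.0355 to 0.0542 for DNAJB1, -0.175 to 0.150 for HSPE1, -0.000114 to 0.0454 for HSPA5, -0.0127 to 0.0334 for HSPA9 and -0.107 to 0.0697 for TRAP1. Directly they ran from -0.0362 to 0.159 for HSPA1A, -0.181 to 0.0284 for HSPA1B, -0.0827 to 0.0380 for HSPD1, -0.103 to 0.218 for HSPE1 and -0.0447 to 0.129 for TRAP1. The cause of these shifts was not tested. With 3 libraries a group, the changes of HSPB1 with shBMAL1 and of HSPD1 with either knockdown against shControl lie near the threshold, and the threshold side of these genes depends on which libraries are used.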
